A study of Mus musculus with 6 samples.

Results

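The 9 genes described here encode the cell surface proteins that receive Hedgehog ligands and the GLI transcription factors that carry the response: Gas1, Boc, Cdon, Ptch1, Smo, Hhip, Gli1, Gli2 and Gli3. They were chosen by name for their roles, with earlier results of these data known, and all 9 were found among the 15063 genes of the deposited tables. The tables hold RNA-seq values from cultured bone marrow mesenchymal stem cells of 3-week-old mice, with 3 libraries from mice carrying a conditional knockout of Mapk7 (CKO) and 3 from wild-type mice (WT). Mapk7 encodes ERK5, a MAP kinase, and the series asks how its loss bears on the choice between bone and fat. The driver of the conditional deletion is not given in the sources used here. CKO libraries 1 to 3 and WT libraries 1 and 3 were taken at passage 5, and WT library 2 at passage 7.

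Hedgehog ligands bind Ptch1, which holds the membrane protein Smo inactive until ligand arrives. Gas1, Boc and Cdon are co-receptors that help ligand reach Ptch1, while Hhip binds ligand and takes it out of play. Active Smo gathers in the primary cilium and lets Gli2 and Gli3, which otherwise are processed into repressors, act as activators. Gli1, Ptch1 and Hhip are themselves switched on by the pathway and serve as its usual readouts. In the skeleton, Indian hedgehog from cartilage cells guides bone formation, and Hedgehog signalling favours bone over fat in stromal progenitors.

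Some labels do not sit easily with the values. WT libraries 1 and 2 carry the same animal label, yet Ddx3y, a Y-linked gene, had 3 reads in WT library 1 and 1915 in WT library 2. The remaining libraries had 605 to 1406 reads of Ddx3y, so WT library 1 alone nearly lacked it. WT library 1 may thus differ from the others in sex, which was not tested. WT library 3 has one animal number in its description and another in its file header. WT library 2 also stood apart, with Pearson correlations of 0.795 to 0.920 with the other libraries across genes, and the closest pair was CKO library 1 and WT library 1, at 0.972. Results are therefore given with single libraries left out where that matters. The labels do not say whether libraries of one genotype were separate animals or cultures throughout, so p-values cover only the spread among these libraries, which may be technical.

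Values are in RPKM, reads scaled to the length of the gene and to the size of the library, which allows levels of different genes to be compared. Libraries held 17351907 to 20689481 reads. Mapk7 itself had 5.59, 3.84 and 5.45 RPKM in CKO libraries 1 to 3, against 7.12, 6.76 and 9.07 RPKM in WT libraries 1 to 3. All 3 CKO values lay below the WT values, but the transcript was not absent, and the difference did not pass the test (limma adjusted p = 0.505). Gene totals do not separate deleted from retained exons, and Mfap4 overlaps Mapk7 on the opposite strand in GENCODE M21.

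Promoter sequences were available from RefSeq (build GRCm38.p6) for 7 of the 9 members: Cdon, Gas1, Gli2, Gli3, Hhip, Ptch1 and Smo. The windows of Gas1, the member with the largest difference between genotypes, and of Smo, the signal transducer, are shown as the 250 bases before the annotated start, 5′ to 3′. Gas1 lies on the minus strand, at chr13:60177536-60177785, and Smo on the plus strand, at chr6:29735247-29735496. Capitals mark a GC box, GGGCGG, here read on the opposite strand as CCGCCC.
Gas1: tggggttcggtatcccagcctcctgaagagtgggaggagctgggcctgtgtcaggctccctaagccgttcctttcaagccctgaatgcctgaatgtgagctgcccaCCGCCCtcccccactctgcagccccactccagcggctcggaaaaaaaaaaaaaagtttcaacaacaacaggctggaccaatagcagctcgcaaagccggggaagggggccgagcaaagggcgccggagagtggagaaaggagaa
Smo: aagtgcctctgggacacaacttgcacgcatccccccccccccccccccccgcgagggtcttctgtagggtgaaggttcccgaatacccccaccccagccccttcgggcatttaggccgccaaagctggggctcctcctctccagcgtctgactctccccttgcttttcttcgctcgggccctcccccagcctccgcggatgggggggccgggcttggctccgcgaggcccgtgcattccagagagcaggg
A GC box on either strand was found in 5 of the 7 member windows (Gas1, Gli2, Gli3, Hhip and Ptch1) and in 32.7% of all 32851 promoter windows of the same length. The exact GLI consensus GACCACCCA was in 0 of the 7 and in 0.225% of all windows. An exact MEF2 consensus, searched because MEF2 factors are ERK5 substrates, was in 0 of the 7 and in 0.103% of all windows. Both strands were searched, and none of these motifs contains another. In GENCODE M21 a long non-coding RNA, Gm48488, overlaps the Gas1 gene on the opposite strand.

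Gas1 and Boc had the lowest CKO means relative to WT among the members, at 0.104 and 0.233 times, followed by Gli1 at 0.321 times, on few reads, and Cdon at 0.453 times. Gas1, which encodes a membrane-anchored protein first found in growth-arrested fibroblasts, had 79.4, 10.5 and 6.64 RPKM in CKO libraries 1 to 3, against 87.0, 596 and 242 RPKM in WT libraries 1 to 3. Every CKO library was below every WT library, though CKO library 1 was at 0.913 times WT library 1, while WT library 2 was 6.85 times WT library 1. The mean was 32.2 ± 40.9 RPKM in CKO and 308 ± 261 RPKM in WT (SD, n = 3 each). The log2 difference, CKO minus WT on log2(RPKM + 1), was −3.60 (SE 1.01, 95% interval −6.00 to −1.21). Only 28 of the 11085 tested genes had a lower difference. It did not pass over all genes (limma adjusted p = 0.330).

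Boc, an immunoglobulin superfamily co-receptor, followed the same order of libraries as Gas1. It had 11.9, 6.90 and 3.91 RPKM in CKO libraries 1 to 3, against 18.03, 56.0 and 23.4 RPKM in WT libraries 1 to 3. The groups did not overlap, and the CKO mean was 0.233 times the WT mean (7.56 ± 4.03 RPKM in CKO and 32.5 ± 20.6 RPKM in WT, SD, n = 3 each). The log2 difference was −1.91 (SE 0.50, 95% interval −3.08 to −0.74), with a limma adjusted p = 0.303. From highest to lowest, both genes ran WT library 2, WT library 3, WT library 1, CKO library 1, CKO library 2 and CKO library 3.

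Cdon, the close relative of Boc, split the CKO libraries. It had 12.3, 3.44 and 2.24 RPKM in CKO libraries 1 to 3, against 12.3, 16.2 and 11.2 RPKM in WT libraries 1 to 3. CKO library 1 was within the WT range, and CKO libraries 2 and 3 were below it, so the groups overlapped. The log2 difference was −1.29 (SE 0.51, 95% interval −2.48 to −0.10, limma adjusted p = 0.476). The gene length recovered for Cdon was 19950 bases, 2.66 times its longest GENCODE M21 transcript of 7503 bases. Its RPKM may thus be low beside other genes, by up to about that factor if the added length drew few reads. The length is the same in every library, so it cancels in the comparison of genotypes. For the other members the recovered length was 0.739 to 1.27 times the longest transcript.

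Added together, the co-receptors came to 104, 20.9 and 12.8 RPKM in CKO libraries 1 to 3, against 117, 668 and 276 RPKM in WT libraries 1 to 3. Gas1 made up 76.6%, 50.5% and 51.9% of that sum in CKO libraries 1 to 3, and 74.1%, 89.2% and 87.5% in WT libraries 1 to 3. Cdon entered at an RPKM that its recovered length may lower, so the sums may be too low and the Gas1 shares too high in every library. CKO library 1 and WT library 1 were thus alike in both the sum and its make-up, and the other CKO libraries lay far from the other WT libraries.

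**Figure D1:**
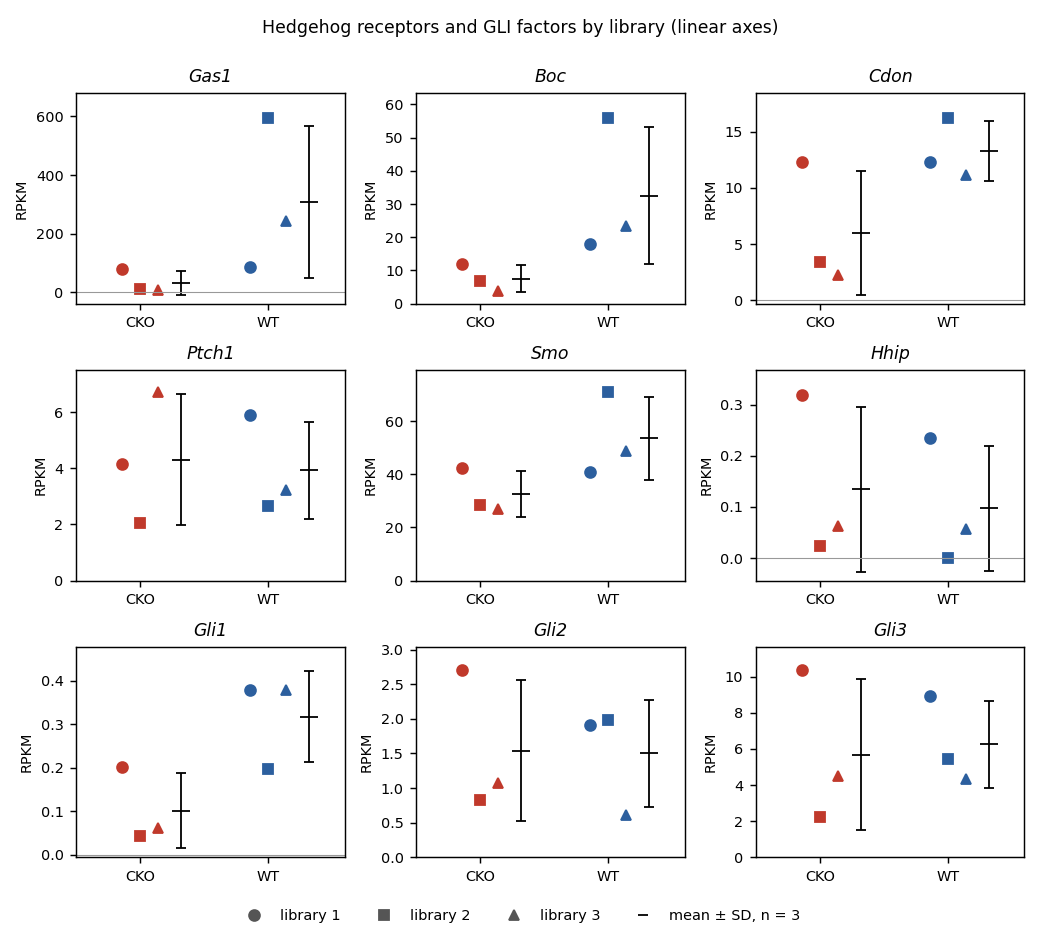
RPKM (linear axes) of the 9 members in each library, with CKO libraries in red on the left and WT libraries in blue on the right; marker shape gives the library number, and black bars give mean ± SD (n = 3). Gas1 and Boc show no overlap between genotypes, CKO library 1 sits nearest to WT in both, and the other 7 members overlap.

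Marker levels of other cell states also differed between the libraries. The 10 stromal markers averaged 6.46, 5.71 and 5.93 in CKO libraries 1 to 3, against 6.65, 6.72 and 6.55 in WT libraries 1 to 3, on the log2(RPKM + 1) scale. Every CKO library was below every WT library in this mean. Of the 9 stromal markers tested, 3 (Pdgfra, Pdgfrb and Cxcl12) showed the same separation, beside 9.18% of all tested genes, while Thy1 and Prrx1 had log2 differences of 0.40 and 0.09. Their summed level was 3162 to 7016 RPKM in CKO and 5549 to 6504 RPKM in WT. The 10 chondrocyte markers summed to 15.8 to 217 RPKM in CKO and 845 to 4921 RPKM in WT, highest in WT library 2. Of the 7 tested, 6 lay lower in every CKO library, beside the same 9.18%. The 12 proliferation markers averaged 4.79, 4.32 and 3.71 in CKO libraries 1 to 3, against 4.80, 1.45 and 4.005 in WT libraries 1 to 3, and summed to 185 to 396 RPKM in CKO and 46.0 to 411 RPKM in WT. WT library 2, the library at passage 7, thus combined the lowest proliferation level with the highest Gas1. Within CKO the order was the reverse. CKO library 3 had the lowest CKO values of both, and CKO library 1 the highest. A link between them was not tested. The 13 macrophage markers summed to 435 to 3439 RPKM in CKO and 795 to 2296 RPKM in WT, and 0 of the 13 separated the genotypes. The 8 listed osteoblast markers averaged 3.74, 3.14 and 3.18 in CKO libraries 1 to 3, against 4.43, 4.92 and 4.49 in WT libraries 1 to 3, lower in every CKO library. They summed to 2747 to 3478 RPKM in CKO and 3111 to 9351 RPKM in WT. Of the 6 tested, 2 (Ibsp and Pth1r) were lower in every CKO library, beside 9.18% of all tested genes. Ibsp, at 0.0264 to 0.0810 RPKM in CKO, passed the filter through WT libraries alone, which by itself sets its groups apart. The 6 listed adipocyte markers summed to 9.44 to 51.3 RPKM in CKO and 29.6 to 54.6 RPKM in WT. Of the 4 tested, 2 (Pparg and Cebpa) were lower in every CKO library, beside the same 9.18%. Fabp4 and Lpl overlapped between genotypes, with log2 differences in opposite directions, 1.19 and −1.93. The 6 endothelial markers summed to at most 2.51 RPKM in CKO and 2.68 RPKM in WT. No listed marker was at 0 in every library. The part of these differences in the co-receptor result was not tested. In bulk RNA, fewer cells of a type and less RNA per cell cannot be told apart.

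Set against the stromal marker level of the same library, a scale chosen after the values were seen, Gas1 stood at −0.13, −2.18 and −3.001 in CKO libraries 1 to 3, against −0.19, 2.504 and 1.37 in WT libraries 1 to 3, in log2 units. The genotype means, CKO minus WT, then differed by −3.002 for Gas1, −1.31 for Boc, −0.69 for Cdon and −0.09 for Smo. They differed by 0.34 for Gli3, 0.66 for Ptch1 and 0.61 for Gli2. The scale raises the difference of every gene by the same amount, since the stromal mean was 6.04 in CKO and 6.64 in WT. The changed sign of Gli3 follows from that shift, as do the rise of Gli2 from 0.0038 and that of Ptch1 from 0.06. Gli2 stood at −4.58, −4.84 and −4.88 in CKO libraries 1 to 3, against −5.10, −5.14 and −5.87 in WT libraries 1 to 3. Gli2 was thus higher in every CKO library on this scale, while its groups overlapped in RPKM. The share of all genes so separated on this scale was not worked out, so no separation on it is read as a result. On this scale Gas1 in CKO library 1 lay just above WT library 1, Cdon in CKO library 1 lay within the WT range, and Boc remained lower in every CKO library.

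**Figure D2:**
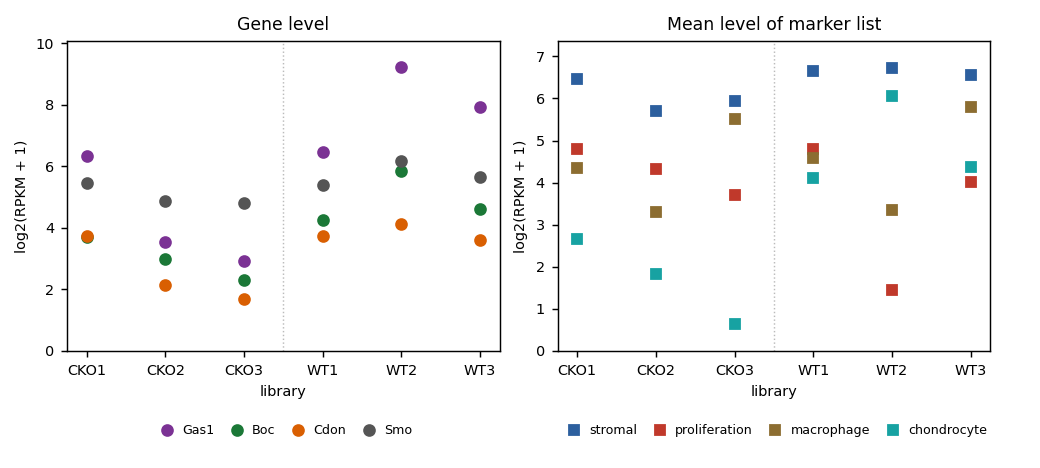
Left, log2(RPKM + 1) of Gas1, Boc, Cdon and Smo in each library; right, the mean log2(RPKM + 1) of the stromal, proliferation, macrophage and chondrocyte marker lists in the same libraries (CKO left of the dotted line, WT right). Gas1 and Boc are highest in WT library 2, where the proliferation level is lowest at 1.45 and the chondrocyte level highest.

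Ptch1, the ligand receptor that restrains Smo, was alike in spread between genotypes. It had 4.15, 2.06 and 6.71 RPKM in CKO libraries 1 to 3, against 5.90, 2.66 and 3.23 RPKM in WT libraries 1 to 3. Both the highest and the lowest library were CKO. The log2 difference was 0.06 (SE 0.40, 95% interval −0.87 to 0.99, limma adjusted p = 0.969). Its sign turned when WT library 2 (−0.13), WT library 3 (−0.02) or CKO library 3 (−0.26) was left out.

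Smo, the transducer, varied least among the members, with its highest library at 2.65 times its lowest. It had 42.4, 28.3 and 26.8 RPKM in CKO libraries 1 to 3, against 41.0, 71.0 and 48.8 RPKM in WT libraries 1 to 3. CKO library 1 lay just above WT library 1, and CKO libraries 2 and 3 lay below all WT libraries. The log2 difference was −0.70 (SE 0.29, 95% interval −1.38 to −0.01, limma adjusted p = 0.507), and −0.48 without WT library 2. Smo stood above 84.6% to 90.7% of listed genes in CKO libraries and above 89.9% to 94.7% in WT libraries. On log2(RPKM + 1), Ptch1 minus Smo averaged −2.73 ± 0.76 in CKO and −3.49 ± 0.85 in WT (SD, n = 3 each).

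Hhip, the decoy receptor, was close to the limit of detection. It had 55, 4 and 10 reads in CKO libraries 1 to 3, or 0.320, 0.0228 and 0.0620 RPKM, against 37, 0 and 9 reads in WT libraries 1 to 3, or 0.235, 0 and 0.0571 RPKM. The 0 reads of WT library 2 allow up to 0.0160 RPKM, the value of 3 reads, with counting error only. CKO library 1 and WT library 1 held most of the reads in their genotypes. Hhip was below 1 RPKM in every library. It thus missed the filter of at least 1 RPKM in at least 3 libraries and was not tested.

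Gli1, the transcriptional readout of the pathway, was also below the filter in every library. It had 14, 3 and 4 reads in CKO libraries 1 to 3, against 24, 15 and 24 reads in WT libraries 1 to 3. These came to 0.202, 0.0423 and 0.0615 RPKM in CKO, and to 0.378, 0.198 and 0.378 RPKM in WT. CKO library 1 lay marginally above WT library 2, so the groups overlapped, and the exact Poisson 95% intervals of those libraries were 0.110 to 0.339 RPKM for CKO library 1 and 0.111 to 0.327 RPKM for WT library 2. The means were 0.102 ± 0.0871 RPKM in CKO and 0.318 ± 0.104 RPKM in WT (SD, n = 3 each). In a limma-voom fit on recovered reads without the filter, chosen after the values were seen, the log2 difference was −1.79 (SE 0.76, adjusted p = 0.508). In GENCODE M21, Arhgap9 overlaps Gli1 on the opposite strand. The use of strand in counting is not given in the sources used here, so reads of that pair cannot be told apart at this level.

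Gli2, the main activator of the family, had 2.70, 0.829 and 1.08 RPKM in CKO libraries 1 to 3, against 1.91, 1.98 and 0.610 RPKM in WT libraries 1 to 3. The ranges of the genotypes nearly coincided. The log2 difference was 0.0038 (SE 0.37, 95% interval −0.86 to 0.87, limma adjusted p = 0.998), but leaving out WT library 3 gave −0.29 and leaving out CKO library 1 gave −0.30.

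Gli3, the main repressor of the family, was the most abundant of the GLI genes. It had 10.3, 2.22 and 4.49 RPKM in CKO libraries 1 to 3, against 8.96, 5.46 and 4.35 RPKM in WT libraries 1 to 3. CKO library 1 was highest and CKO library 2 lowest, with all WT libraries between them. The log2 difference was −0.26 (SE 0.47, 95% interval −1.37 to 0.85, limma adjusted p = 0.869), and 0.17 without CKO library 2. Gli3 exceeded Gli2, and Gli2 exceeded Gli1, in each of the 6 libraries. On log2(RPKM + 1), Gli2 minus Gli3 averaged −1.28 ± 0.41 in CKO and −1.54 ± 0.37 in WT (SD, n = 3 each).

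**Figure D3:**
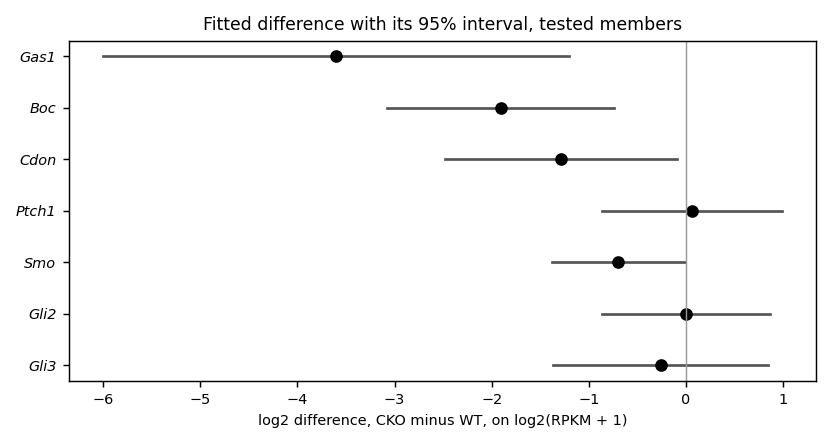
Log2 difference (CKO minus WT, on log2(RPKM + 1)) of the 7 tested members, with points for the limma estimate and lines for its 95% interval. The intervals of Gas1, Boc, Cdon and Smo lie below 0, while those of Ptch1, Gli2 and Gli3 span it; the intervals are not adjusted for the number of genes tested.

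Of the 9 members, 7 passed the filter and 0 of the 7 passed the test over all genes, where 1 of 11085 genes (0.00902%) did. At an unadjusted limma p under 0.05 there were 4 of the 7, beside 9.74% of all tested genes. All 4 (Gas1, Boc, Cdon and Smo) were lower in CKO, beside 6.39% of all tested genes, and 0 were higher, beside 3.36%. All 3 CKO values lay below all 3 WT values in 2 of the 7 (Gas1 and Boc), beside 9.18% of all tested genes. The median log2 difference was −0.70 over the 7 and 0.03 over all tested genes. Apart from Gli2, which passed through libraries of both genotypes, each of the 7 was at or above 1 RPKM in every library. Leaving out CKO library 2, CKO library 3, WT library 2 or WT library 3 brought the number at an unadjusted p under 0.05 to 2. It was 3 when WT library 1 was left out and 4 when CKO library 1 was.

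Cdon is left out of the order of levels, since the length used for it may lower its RPKM. By mean level, the other 8 members ran in CKO from Smo through Gas1, Boc, Gli3, Ptch1, Gli2 and Hhip to Gli1, and in WT from Gas1 through Smo, Boc, Gli3, Ptch1, Gli2 and Gli1 to Hhip. In CKO the ranges of all neighbours in that order overlapped except Gli2 and Hhip. In WT the ranges of Smo and Boc, of Gli3 and Ptch1, and of Gli1 and Hhip overlapped, and the other neighbours were apart. Since Gli1 was below the filter, the genes most like Ptch1 were sought: over the 6 libraries Cxcl1 had a Pearson r of 0.990 with it, Tirap 0.987 and Ssx2ip 0.986. These are the highest of all tested genes by choice and serve as a description, and libraries of one animal label are among the 6 points.

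The ligand genes were barely detected in either genotype. Shh, encoding Sonic hedgehog, had 1, 1 and 14 reads in CKO libraries 1 to 3, against 0 reads in each WT library, where 3 reads would be 0.0506 to 0.0604 RPKM. Ihh, encoding Indian hedgehog, had 3, 3 and 2 reads in CKO libraries 1 to 3, against 1, 0 and 9 reads in WT libraries 1 to 3. Dhh, encoding Desert hedgehog, had 7, 4 and 32 reads in CKO libraries 1 to 3, against 0, 2 and 6 reads in WT libraries 1 to 3. The highest Shh and Dhh values were both in CKO library 3, at 0.275 and 0.361 RPKM. None of these was tested. Hhat, the acyltransferase that lipidates the ligands, averaged 2.83 ± 0.479 RPKM in CKO and 2.73 ± 0.229 RPKM in WT, and Disp1, which releases them, 8.86 ± 3.24 RPKM in CKO and 9.28 ± 1.94 RPKM in WT (SD, n = 3 each). Of the 8 ligand and release genes 2 were tested, Hhat and Disp1, and 0 passed.

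Of 8 other surface regulators, 7 were listed, 5 were tested and 0 passed (median log2 difference −0.32). Mgrn1, a ubiquitin ligase gene, had 13.1 ± 1.12 RPKM in CKO and 16.6 ± 3.24 RPKM in WT (SD, n = 3 each). It was lower in every CKO library, the only 1 of the 5 tested, beside 9.18% of all tested genes. The glypican gene Gpc6 had 1.93 ± 0.986 RPKM in CKO and 3.44 ± 0.643 RPKM in WT. Gpc3, a glypican that competes for ligand, ranged from 0.228 to 8.31 RPKM in CKO and from 0.107 to 3.58 RPKM in WT. Gpr161, a ciliary receptor that keeps the pathway off, had 2.91 ± 1.00 RPKM in CKO and 1.86 ± 0.429 RPKM in WT.

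All 18 signal relay genes were tested and 0 passed, with 11 above 0, 7 below 0 and a median log2 difference of 0.05. At an unadjusted limma p under 0.05 there was 1 of the 18, lower in CKO, beside 6.39% of all tested genes. This was Evc, which encodes a ciliary partner of Smo. Evc had 5.62, 4.41 and 3.47 RPKM in CKO libraries 1 to 3, against 6.69, 10.4 and 7.94 RPKM in WT libraries 1 to 3. The groups did not overlap (log2 difference −0.76, limma adjusted p = 0.378). Its partner Evc2 had 8.02 ± 0.629 RPKM in CKO and 10.9 ± 2.26 RPKM in WT, and Kif7, the ciliary kinesin that organises GLI processing, 2.71 ± 0.488 RPKM in CKO and 4.14 ± 0.871 RPKM in WT (SD, n = 3 each). Both were lower in every CKO library. All CKO values lay below all WT values in 4 of the 18, beside the 9.18% of all tested genes. Csnk1a1, a kinase gene, had 47.5 ± 8.58 RPKM in CKO and 36.1 ± 10.2 RPKM in WT, and Spop, an adaptor for GLI degradation, 53.7 ± 7.72 RPKM in CKO and 43.5 ± 4.18 RPKM in WT.

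Of 15 other target genes, 11 were tested and 0 passed, with 6 above 0, 5 below 0 and a median of 0.16. At an unadjusted limma p under 0.05 there were 3 of the 11 (Ccnd1, Snai1 and Nkx3-2). All 3 were lower in CKO, beside 6.39% of all tested genes. The median log2 difference was −0.23 without CKO library 2. Ccnd1, the cyclin D1 gene, had 21.2, 45.3 and 24.98 RPKM in CKO libraries 1 to 3, against 52.2, 134 and 112 RPKM in WT libraries 1 to 3. Snai1, a repressor of epithelial genes, had 27.9 ± 14.5 RPKM in CKO and 59.9 ± 17.6 RPKM in WT (SD, n = 3 each). Neither overlapped between genotypes, with limma adjusted p = 0.303 for Ccnd1 and 0.490 for Snai1. These were 2 of the 11 with all CKO values below all WT values, beside 9.18% of all tested genes. Nkx3-2, a repressor gene of skeletal progenitors, ranged from 0 to 1.07 RPKM in CKO and from 0.642 to 2.02 RPKM in WT. Sfrp1, a Wnt antagonist gene, ranged from 4.61 to 89.7 RPKM in CKO and from 53.1 to 117 RPKM in WT. Bcl2, a survival gene, was higher in every CKO library, at 1.57 ± 0.194 RPKM in CKO and 0.996 ± 0.299 RPKM in WT, beside 7.51% of all tested genes with that separation. Many of these genes also answer to Wnt, BMP or growth factor signals.

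All 39 genes of primary cilium assembly and transport were tested and 0 passed. Their differences spanned −0.58 to 0.50, with 11 above 0, 28 below 0 and a median of −0.16. All CKO values lay below all WT values in 1 of the 39, beside 9.18% of all tested genes. This was Bbs9, a subunit of the BBSome cargo adaptor, at 1.56 ± 0.125 RPKM in CKO and 2.80 ± 0.917 RPKM in WT (SD, n = 3 each). Bbs2, of the same complex, had 2.54 ± 0.508 RPKM in CKO and 4.09 ± 1.06 RPKM in WT. Cc2d2a, of the ciliary transition zone, had 2.29 ± 1.04 RPKM in CKO and 3.79 ± 0.608 RPKM in WT, and Tmem231, of the same zone, 4.13 ± 1.26 RPKM in CKO and 2.59 ± 0.593 RPKM in WT. Dync2li1, a subunit of the retrograde motor, had 10.7 ± 1.27 RPKM in CKO and 15.5 ± 5.12 RPKM in WT.

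**Figure D4:**
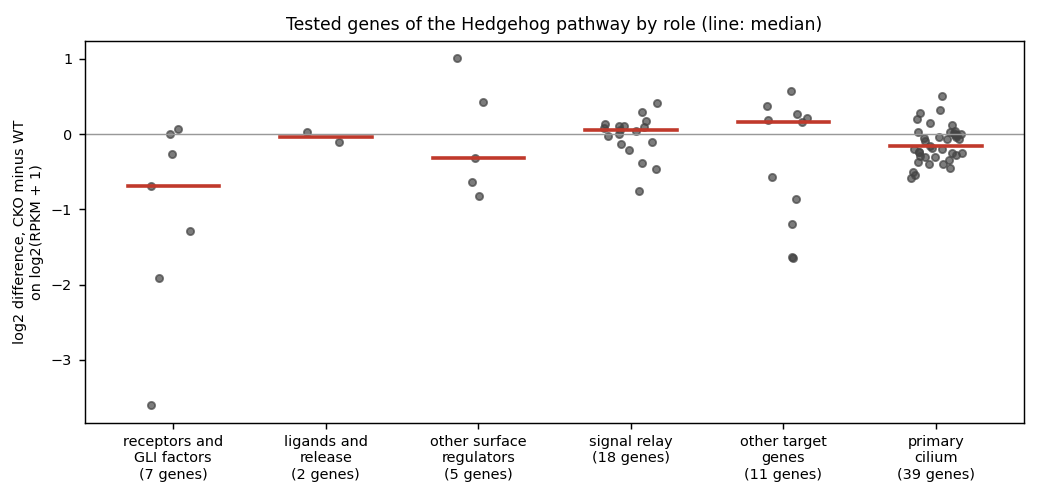
Log2 difference (CKO minus WT, on log2(RPKM + 1)) of each tested gene, grouped by role in the Hedgehog pathway, with a red line at each group's median. Receptors and GLI factors have a median of −0.70 with Gas1 at −3.60, while the 18 signal relay genes have a median of 0.05 and the 39 cilium genes one of −0.16.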

How the data were processed

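The authors deposited 1 value per gene and library, worked out here to be RPKM. The file headers say only expression. When a whole-number library size and a whole-number gene length were solved for, the values of 15062 of 15063 genes (99.99%) became whole reads in all libraries, to a tolerance of 0.01 read (relative tolerance 1e-07 at high counts), while 0 of 103 genes with shuffled values did. Reads given for a gene come from this recovery. Per the submitters' processing notes, mm9 was the build. Which aligner, counter and annotation were used, and whether strand was, is not given in the sources used here. Libraries were stranded mRNA, per the labels' protocols. One combined table held equal values and was left aside.

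Groups and replicate numbers came from the sample titles. The test used limma 3.58.1 in R 4.3.3 on log2(RPKM + 1), fitting genotype alone, with eBayes set to trend and robust, over the 11085 genes with at least 1 RPKM in at least 3 libraries. Two-sided p-values received Benjamini-Hochberg adjustment across those genes, and the threshold was 0.05. Fold changes on this scale understate the change of low genes. The smallest p that an exact permutation test can give for 1 gene at 3 against 3 is 0.1. The fit and the recovery were tested on simulated data. Lists were described by counts and medians, without a test of the list.

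The members and lists were chosen with earlier results of these data known. Named genes were all members, Mapk7, up to 5 genes with the lowest p of each pathway list, the 3 ligands and the 3 genes most like Ptch1. Some items are not reported here. Pdgfra, Pdgfrb, Cxcl12, Thy1, Prrx1, Ibsp, Pth1r, Pparg, Cebpa, Fabp4, Lpl, Ddx3y and those in the closing observations were named after their values were seen. Sequences and gene overlaps came from annotations of GRCm38, not mm9, and were matched by symbol. Alternatives were other normalizations, filters and pseudocounts, limma without trend and robust moderation, omission of each library, a merge of the WT pair with 1 animal label, the replicate number as a block, and limma-voom on recovered reads.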

Additional observations from a re-analysis of the deposited data

How the results depend on the processing

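Of the tested members, 0 passed over all genes under any of the 16 alternatives, with limma throughout and 2 to 4 members at an unadjusted p under 0.05. Gas1, Boc, Cdon and Smo stayed lower in CKO under all 16, at log2 differences of −4.64 to −2.93, −2.26 to −1.44, −1.89 to −0.87 and −0.90 to −0.48, with adjusted p of 0.139 to 0.801, 0.161 to 0.789, 0.104 to 0.971 and 0.331 to 1.00. With 1 library left out, Gli2 ranged from −0.30 to 0.20, Gli3 from −0.74 to 0.17, Ptch1 from −0.26 to 0.41, Gli1 from −0.33 to −0.22 and Hhip from −0.0685 to 0.13. With voom on recovered reads Gli2 was at −0.0021, and with voom and no filter Gli2 was at −0.00077, Gli1 at −1.79 and Hhip at 1.35. Voom adds less to low values than a pseudocount of 1 RPKM does.

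The 1 gene past the threshold became 2 after median centring, 2 after quantile normalization, 4 with the filter at RPKM 5, 50 when the WT pair with 1 animal label was merged, and 0 without a filter, with a pseudocount of 0.1, with the replicate block, with voom on recovered reads, and with voom and no filter, where 1399, 1059, 1123, 1000 and 1480 genes had an unadjusted limma p under 0.05. It was 0 to 24 with 1 library left out: 17 when CKO library 1 was omitted, 24 for WT library 1 and 1 for CKO library 2. Omission of CKO library 3, WT library 2 or WT library 3 gave 0, with 800, 642 and 665 genes at an unadjusted limma p under 0.05. The cause was not tested. Libraries with the same replicate number shared deviations from their group means at correlations of 0.198, 0.014 and −0.019. Pairs with other numbers ran from −0.23 to 0.206. So few pairs cannot settle whether the numbers pair the libraries. No member passed with or without the replicate block. At an unadjusted limma p under 0.05 there were 3 members with the block and 4 in the main fit. CKO library 2 correlated better with WT library 3 (0.206) than with its own number. In each of the pathway lists and the cilium list, 0 genes passed under all 16 alternatives. Depth limits Gli1, Hhip and the ligand genes, where 1 to 55 reads or none were counted.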

Other observations

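A few low genes of the pathway lists that were below the filter, and so not tested, separated the genotypes without overlap. Scube2, a secreted protein that helps release Hedgehog ligands, had 0.0445, 0.0145 and 0.0632 RPKM in CKO libraries 1 to 3, against 0.194, 3.798 and 0.501 RPKM in WT libraries 1 to 3. Lrp2, an endocytic receptor that can bind Sonic hedgehog, had 1.01, 0.506 and 0.577 RPKM in CKO libraries 1 to 3, against 0.381, 0.154 and 0.101 RPKM in WT libraries 1 to 3. Foxl1, a forkhead gene of gut mesenchyme, had 0.196, 0.908 and 0.362 RPKM in CKO libraries 1 to 3, against 0.156, 0.0653 and 0.0584 RPKM in WT libraries 1 to 3. These values rest on 1 to 52 reads a library for Foxl1 and Scube2 outside WT library 2, and on 27 to 296 reads for Lrp2. The gap for Foxl1 lay between 11 reads in CKO library 1 and 8 in WT library 1. Shh was the remaining gene, with most of its reads in CKO library 3 and 1 read in each of CKO libraries 1 and 2. The share of all untested genes with such a separation was not worked out. These genes were picked for their separation, and no call rests on them.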
